A study of Mus musculus with 6 samples.

Results

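Voltage-gated and HCN ion channel genes were described in sciatic nerves of mice with and without Rnf40 in Schwann cells. Members were chosen by symbol and comprised the pore-forming and accessory subunit genes of potassium channels (Kcn), sodium channels (Scn), calcium channels (Cacn) and hyperpolarization-activated cation channels (Hcn), which gave 135 of the 24015 gene symbols counted. RNA-Seq was carried out on 6 libraries from postnatal day 14, each made from a pool of 3 sciatic nerves. The 3 control libraries came from Rnf40 fl/fl mice, which carry floxed alleles of this E3 ubiquitin ligase gene but no Cre. The 3 Rnf40ΔSC libraries came from mice with the same floxed alleles and the Dhh::Cre transgene, whose expression is restricted to the Schwann cell lineage. Both groups are labelled with a mixed background of 129SvJ and C57Bl/6J, whereas the methods of the study name C3H in place of 129SvJ. Whole nerve was used, so that RNA from fibroblasts, perineurial, vascular and immune cells and from axons was counted together with that of Schwann cells.

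Ion channels open and close to let sodium, potassium or calcium ions cross the membrane. In myelinated axons sodium channels cluster at the nodes of Ranvier and Kcna-type potassium channels lie under the myelin beside them, and both carry the action potential or limit its repetition. The genes of axonal channels are mostly transcribed in the cell bodies of neurons, which lie outside the nerve, while Schwann cells express channels of their own, with which they take up potassium and set their membrane potential.

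Library totals were 1317167, 1992622 and 2468765 counts in control and 2184268, 1459387 and 2186710 counts in Rnf40ΔSC libraries 1, 2 and 3. The precision of genes with few reads is limited accordingly, since 1 read stood for between 0.776 and 1.54 normalized counts (counts brought to a common library size with TMM factors). Channel genes took 0.300%, 0.314% and 0.306% of all counts in control and 0.443%, 0.430% and 0.458% in Rnf40ΔSC libraries, so that the groups did not overlap in this share. Rnf40 itself had 127, 123 and 138 normalized counts in control and 87.7, 87.9 and 91.5 in Rnf40ΔSC libraries. All 3 Rnf40ΔSC libraries thus lay below the controls for the deleted gene, as their labels state, with a log2 fold change of -0.54 (SE 0.138, edgeR adjusted p = 0.00242). With total-count scaling the value was -0.27 (edgeR adjusted p = 0.12, range over the alternatives 0.00235 to 0.12).

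Of the 135 channel genes, 22 had no read in any library, 69 had reads but were below edgeR's filter on low counts, and 44 were tested. The test was the quasi-likelihood test of edgeR, with p-values adjusted by Benjamini and Hochberg over the 11371 genes tested in the whole table, and a gene is called higher or lower here at an adjusted p of at most 0.05. By this rule 11 of the 44 were higher and 11 were lower in Rnf40ΔSC nerves, which is 25% in each direction beside 15.4% higher and 16.2% lower among all genes tested. With the limits used in the study (which also ask for a shift of 0.8 or more on the log2 scale and for 20 or more normalized counts on average over the 6 libraries, the base mean), 6 were higher and 5 were lower, or 13.6% and 11.4% beside 3.65% and 4.99% among all genes tested. The median log2 fold change was -0.30 over the 44 genes and -0.0026 over all genes tested, and the median absolute log2 fold change was 0.69 and 0.32, respectively. The p-values measure the spread between these 6 libraries.

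Scaling affected this balance. Total-count scaling raised the median log2 fold change of all genes tested from -0.0026 to 0.27, and the channel genes then divided into 15 higher and 6 lower. This is 34.1% and 13.6% of those tested, beside 33.1% higher and 7.74% lower among all genes with the same scaling, so that the share of higher channel genes was near that of all genes. The median over the channel genes was -0.034 with total-count scaling and 0.21 without the filter on low counts. Its size thus depended on the scaling and its direction on the filter. With total-count scaling the calls of Hcn4, Kcna2, Kcnab2, Kcnj2 and Scn3b were lost, and Cacna1a, Cacna1h, Kcna6 and Kcnh2 were called higher in addition. In contrast, 12 channel genes passed under each alternative that tested them. Kcnj10, Kcna1, Scn8a, Kcnip2, Cacna1d, Cacnb4 and Kcnh8 were among the higher ones, and Scn7a, Kcnk1, Kcnmb4 and Kcnj8 were lower. Cacnb4 and Kcnip2 had too few reads for the stricter filter, which asks for 10 counts per library. The remaining 10 calls were lost under at least 1 alternative and are given, where described, with the libraries on which they rest.

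**Figure D1:**
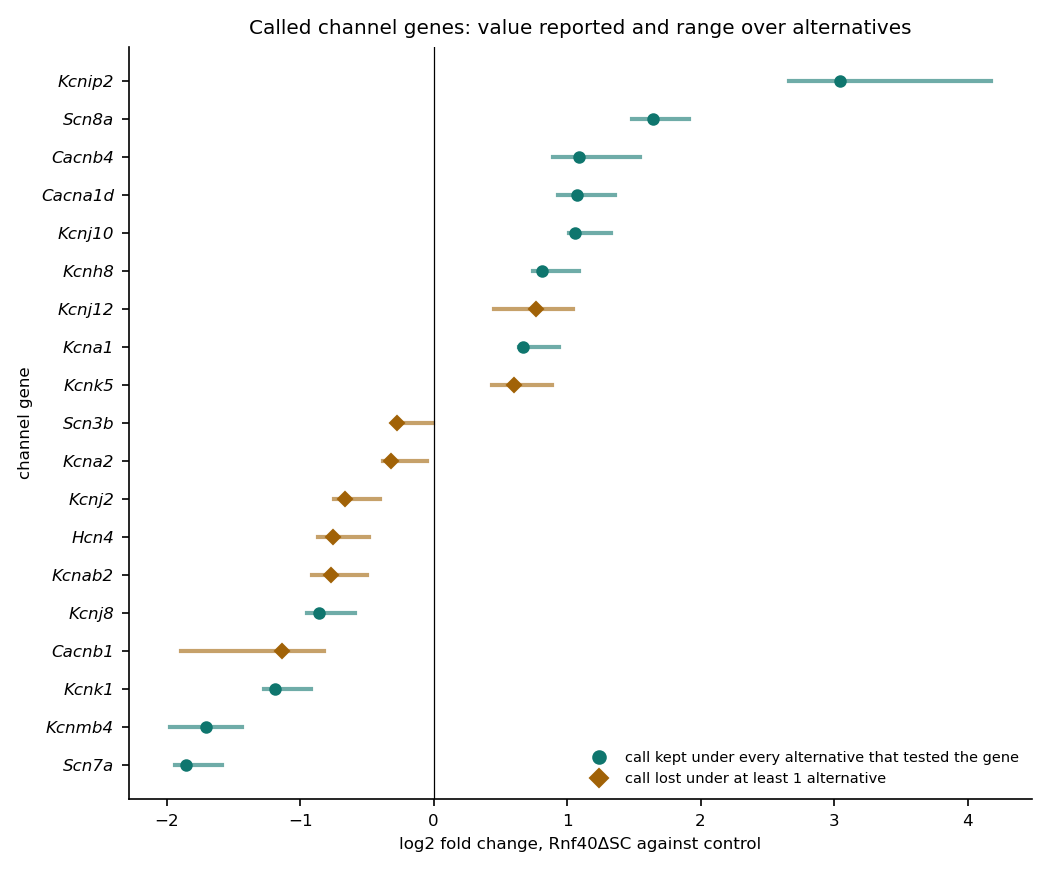
Log2 fold changes (Rnf40ΔSC against control) of channel genes called higher or lower that are described in the text. Symbols give the value reported and lines the range over the alternatives that tested the gene, for genes that passed in each of them (circles) and genes that did not (diamonds). The line of Scn3b reaches -0.0036, under total-count scaling.

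Markers of cell types were examined first. All 8 Schwann cell markers were detected and tested, 1 was higher and 7 were lower, beside 15.4% and 16.2% of all genes tested. Sox10, a lineage marker, had a log2 fold change of -0.79 (SE 0.0908, edgeR adjusted p = 8.80e-09). For channel genes that Schwann cells express, fewer cells and less RNA per cell cannot be told apart from RNA counts of whole nerve alone. Of 13 neuronal markers 6 were tested, 1 of which was higher and 1 lower, and Isl1, which marks sensory neuron cell bodies, had 0 reads in every library. The summed neuronal level was 161, 146 and 137 normalized counts in control and 167, 128 and 137 in Rnf40ΔSC libraries, with Uchl1 as the most abundant gene, so that the groups overlapped.

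Skeletal muscle markers separated the libraries in another way. The summed level of 18 muscle genes was 10314, 7872 and 5879.9 normalized counts in control libraries and 267, 659.6 and 7510.3 in Rnf40ΔSC libraries 1, 2 and 3, with Myh4 as the most abundant gene. Rnf40ΔSC library 3 thus lay among the controls, and libraries 1 and 2 lay far below them. Of the 17 muscle genes tested, 0 passed in edgeR when all libraries were used, and 16 were lower when Rnf40ΔSC library 3 was left out. None of the 18 was at 0 in all libraries. The counts of channel genes depended on this library as well: without it 8 were higher and 17 were lower (18.2% and 38.6%, beside 16.7% and 17.3% among all genes tested without this library), the latter including all 11 of the lower genes above and, among others, Cacna1s, Cacna2d1, Kcnk3, Kcnk6 and Scn4a.

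Hyperpolarization-activated channels conduct an inward cation current at negative membrane potentials. Hcn4, best known as a pacemaker channel of the heart, had 46.3, 36.0 and 39.3 normalized counts in control and 27.4, 17.6 and 24.8 in Rnf40ΔSC libraries. The groups did not overlap, and the log2 fold change was -0.75 (SE 0.245, edgeR adjusted p = 0.0163). This call was lost with total-count scaling, with DESeq2 and without control library 1, control library 3 or Rnf40ΔSC library 2 (adjusted p from edgeR or DESeq2 between 0.0116 and 0.115 over the alternatives). Hcn2 had between 8.85 and 18.5 normalized counts with overlapping groups and did not pass (log2 fold change -0.46, SE 0.385, edgeR adjusted p = 0.398). Hcn3 had 1, 1 and 5 reads in control and 2, 0 and 0 in Rnf40ΔSC libraries and was not tested.

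**Figure D2:**
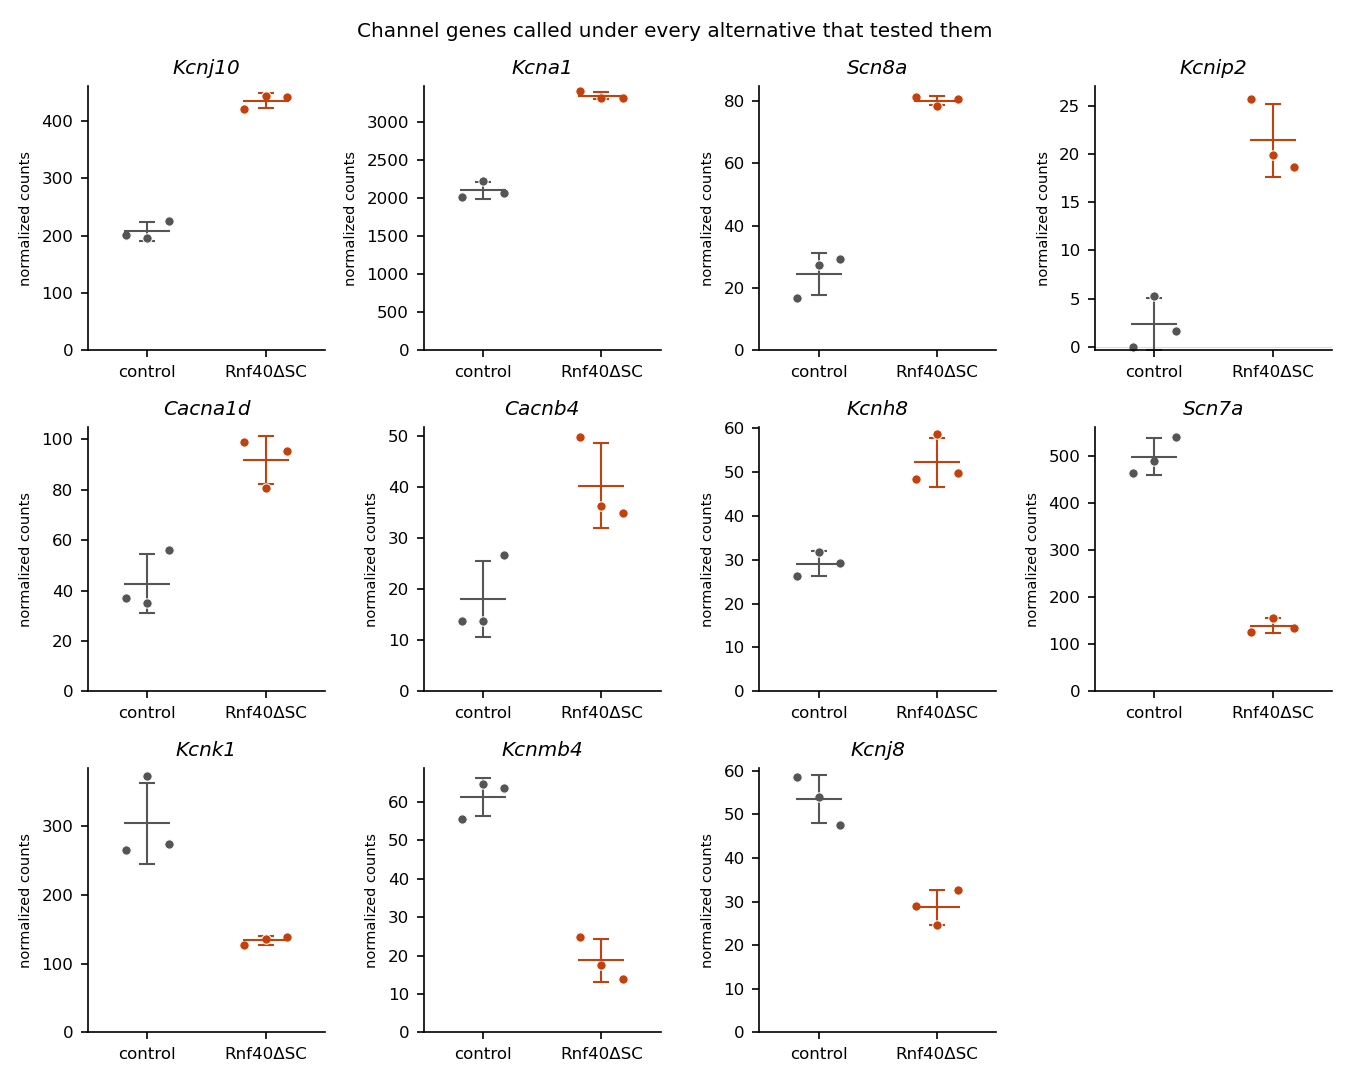
Normalized counts of channel genes that passed under each alternative that tested them, with 1 point for each library, a horizontal line at the mean and bars of 1 SD (n = 3). In none of these genes do the groups overlap, and Kcna1 has the highest counts, with 3401 in Rnf40ΔSC library 1.

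The sodium channel alpha subunits, which form the pore, changed in both directions. Scn7a (chromosome 2, 66511482 to 66622971 on the minus strand), which encodes a sodium-sensing relative of the voltage-gated channels found in Schwann cells that do not myelinate, had 465, 490.4 and 541 normalized counts in control and 126, 157 and 134 in Rnf40ΔSC libraries. All Rnf40ΔSC libraries were below the lowest control. Scn7a fell by 1.86 on the log2 scale (SE 0.108, edgeR adjusted p = 1.23e-16), which is 3.62-fold, and its log2 fold change ranged from -1.94 to -1.59 over the 12 alternatives.

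Scn8a encodes the main sodium channel of mature nodes of Ranvier. It had 17.0, 27.5 and 29.3 normalized counts in control and 81.3, 78.5 and 80.7 in Rnf40ΔSC libraries. The 3 Rnf40ΔSC libraries lay close together and above all controls, with a log2 fold change of 1.65 (SE 0.207, edgeR adjusted p = 6.03e-08) and a range of 1.49 to 1.92 over the 12 alternatives. No mm9 position is given for Scn8a or Kcnh8, since each symbol has 2 entries in the GENCODE vM1 annotation used here. Scn9a, an alpha subunit of sensory neurons, had 2, 7 and 2 reads in control and 15, 7 and 5 in Rnf40ΔSC libraries and was not tested. Scn1a, Scn3a, Scn10a and Scn11a, further alpha subunits below the filter, had between 0 and 8 reads in any library.

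Beta subunits modulate the gating and placement of the alpha subunits. Scn3b had 577, 572 and 579 normalized counts in control and 496, 456 and 479 in Rnf40ΔSC libraries. All Rnf40ΔSC libraries lay below the controls, but the difference was small (log2 fold change -0.27, SE 0.0912, edgeR adjusted p = 0.0202). With total-count scaling it was -0.0036 (edgeR adjusted p = 0.979, the highest over the alternatives, the lowest being 0.0209), and it did not pass without control library 3 (edgeR adjusted p = 0.0792) or Rnf40ΔSC library 2 (0.0749). Scn2b had 2, 7 and 15 reads in control and 10, 7 and 5 in Rnf40ΔSC libraries and was not tested.

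Kcna1 and Kcna2 encode the pore subunits of the juxtaparanodal potassium channel. Kcna1 (chromosome 6, 126586481 to 126595819 on the minus strand) had 2020.3, 2230.5 and 2061 normalized counts in control and 3401, 3317 and 3317 in Rnf40ΔSC libraries. Kcna2 (chromosome 3, 106904485 to 106909797 on the plus strand) had 648, 742 and 620.0 in control and 547, 535 and 529 in Rnf40ΔSC libraries. For Kcna1 every Rnf40ΔSC library was above, and for Kcna2 every Rnf40ΔSC library was below the controls. The log2 fold change was 0.67 for Kcna1 (SE 0.0774, edgeR adjusted p = 9.20e-09) and -0.32 for Kcna2 (SE 0.0935, edgeR adjusted p = 0.00790). The log2 fold change of Kcna1 lay between 0.64 and 0.94 under the 12 alternatives, whereas Kcna2 did not pass with total-count scaling (log2 fold change -0.05, edgeR adjusted p = 0.703) or without control library 2 (-0.24, edgeR adjusted p = 0.0851, range over the alternatives 0.00823 to 0.703).

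Kcna1 alone took 33.1% of all channel gene counts in control and 43.8% in Rnf40ΔSC libraries (means of 3), which makes it the largest contributor to the summed channel count in both groups. Kcnab2, a cytoplasmic beta subunit of the Kcna channels, had 43.2, 49.8 and 35.1 normalized counts in control and 27.4, 25.8 and 21.7 in Rnf40ΔSC libraries. The groups did not overlap, and the log2 fold change was -0.76 (SE 0.239, edgeR adjusted p = 0.0124). This call was lost with total-count scaling (edgeR adjusted p = 0.0934), with DESeq2 (0.103) and without control library 2 (0.0939). Kcna6, a related pore subunit named after its values were seen, had 309 ± 38.7 normalized counts in control and 308 ± 9.45 in Rnf40ΔSC nerves (SD, n = 3 each). The groups overlapped, and the difference of -0.01 (log2 fold change, SE 0.103, edgeR adjusted p = 0.947) became 0.26 (0.0423) with total-count scaling. Kcnq3, a potassium channel gene of axons, had 0 reads in all libraries, which over 3 libraries allows up to 1.08 normalized counts in control and 0.886 in Rnf40ΔSC nerves (3 reads of the total, counting error only).

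In the remainder of the voltage-gated potassium family, Kcnh8, a member of the ether-a-go-go group, had 26.2, 31.8 and 29.3 normalized counts in control and 48.3, 58.6 and 49.6 in Rnf40ΔSC libraries. All Rnf40ΔSC libraries were higher (log2 fold change 0.82, SE 0.216, edgeR adjusted p = 0.00334). Over the whole family of 40 pore subunit genes, 8 had no read and 22 were below the filter. Among the 10 tested, 3 were higher, 1 was lower and 6 did not pass (5 higher and 0 lower with total-count scaling). The shares of all genes tested were 15.4% higher and 16.2% lower (33.1% and 7.74% with total-count scaling).

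Of the accessory subunits of the Kcnd channels, which carry the transient A-type potassium current, Kcnip1, Kcnip2 and Dpp6 were detected mainly in Rnf40ΔSC nerves, while Kcnip3, Kcnip4 and Dpp10 were not. Kcnip2 encodes a calcium-binding cytoplasmic partner of these channels and was named after its values were seen. It had 0, 5 and 2 reads in control and 32, 17 and 24 in Rnf40ΔSC libraries, which did not overlap (log2 fold change 3.04, SE 0.503, edgeR adjusted p = 9.33e-06). With these control reads it reached the filter through the Rnf40ΔSC libraries alone, so that the filter fixed the direction. The related Kcnip1 had 0 reads in all controls and 5, 3 and 12 in Rnf40ΔSC libraries. With the control group set to a floor of 3 reads this is 5.49-fold, leaving out the counting error of the Rnf40ΔSC reads. Kcnip1 was below the filter of edgeR, and was called higher by DESeq2 and by edgeR without the filter.

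Dpp6, the membrane-spanning partner of the same channels, belongs to a list of accessory subunits outside the naming rule and had 2 reads in each control and 64, 38 and 67 in Rnf40ΔSC libraries (log2 fold change 4.45, SE 0.381, edgeR adjusted p = 5.51e-12). All 3 Rnf40ΔSC libraries were far above the controls. Through these libraries alone Dpp6 reached the filter, so that its direction was fixed by the filter as well. Kcnip3 had 2, 7 and 14 reads in control and 18, 11 and 14 in Rnf40ΔSC libraries, which overlapped in normalized counts and did not pass (log2 fold change 0.64, SE 0.422, edgeR adjusted p = 0.259). Kcnip4 (0, 3 and 2 against 1, 0 and 2 reads) and Dpp10 (1, 0 and 2 against 2, 2 and 2 reads) were below the filter. The pore genes had few reads: Kcnd1 had 8, 8 and 3 in control and 4, 4 and 6 in Rnf40ΔSC libraries. Kcnd2 had at most 3 in any library, and Kcnd3 had 3, 6 and 7 in control and 16, 6 and 8 in Rnf40ΔSC libraries. All Kcnd genes were thus below the filter, and no difference between the groups was detectable for them at this depth.

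Inward rectifiers pass potassium more readily into than out of the cell. Kcnj10 (chromosome 1, 174271341 to 174304216 on the plus strand in mm9), the potassium uptake channel of glial cells, had 201, 196 and 226 normalized counts in control and 420.1, 443 and 442 in Rnf40ΔSC libraries. All Rnf40ΔSC libraries lay near 2.09-fold of the controls, with a log2 fold change of 1.06 (SE 0.101, edgeR adjusted p = 8.41e-11) and a range of 1.02 to 1.33 over the 12 alternatives.

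Kcnj8 encodes the pore of the ATP-sensitive potassium channel of vascular mural cells and had 58.6, 54.0 and 47.7 normalized counts in control and 29.0, 24.6 and 32.6 in Rnf40ΔSC libraries. The groups were separate, with a log2 fold change of -0.86 (SE 0.216, edgeR adjusted p = 0.00203). Its regulatory subunit Abcc9, on the list of accessory subunits, had 215 ± 35.8 normalized counts in control and 133 ± 6.93 in Rnf40ΔSC nerves (SD, n = 3 each) and was lower as well (log2 fold change -0.71, SE 0.123, edgeR adjusted p = 1.78e-05). Of the 8 smooth muscle and pericyte markers, all tested, 0 were higher and 4 lower (2 lower with total-count scaling). Among all genes tested, 16.2% were lower (7.74% with total-count scaling). The lower markers were Tagln, Rgs5, Pdgfrb and Cspg4, while Acta2, Myh11, Cnn1 and Des did not pass. The summed level of the 8 markers was 2153, 1589.7 and 1746 normalized counts in control and 1108, 1082 and 1464 in Rnf40ΔSC libraries, with Pdgfrb as the most abundant gene and none at 0. Their part in the values of Kcnj8 and Abcc9 was not tested.

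Kcnj2 and Kcnj12, strong inward rectifiers of excitable cells that were named after their values were seen, moved in opposite directions. Kcnj2 had 68.3 ± 9.77 normalized counts in control and 43.6 ± 5.20 in Rnf40ΔSC nerves (SD, n = 3 each; log2 fold change -0.67, SE 0.191, edgeR adjusted p = 0.00642). Kcnj12 had 18.5, 22.2 and 25.1 in control and 29.0, 32.8 and 52.0 in Rnf40ΔSC libraries (log2 fold change 0.77, SE 0.264, edgeR adjusted p = 0.0227). Neither gene showed overlap between the groups, but both calls depended on single libraries. Kcnj2 was lost with total-count scaling, with DESeq2 and without control library 3, and Kcnj12 with DESeq2 and without control library 1, control library 2 or Rnf40ΔSC library 3. Without the last of these, the log2 fold change of Kcnj12 was 0.46 (edgeR adjusted p = 0.242, the highest over its alternatives, the lowest being 0.00189).

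Two-pore channels carry background potassium currents. Kcnk1 (chromosome 8, 128519002 to 128554583 on the plus strand in mm9) had 265, 372 and 274 normalized counts in control and 126, 136 and 139 in Rnf40ΔSC libraries. Each Rnf40ΔSC library was below each control library, and Kcnk1 fell by 1.19 on the log2 scale (SE 0.121, edgeR adjusted p = 4.95e-10), with a range of -1.27 to -0.92 over the 12 alternatives. Kcnk2, which together with Kcnk4 is assigned to nodes of Ranvier, had 80.3, 51.9 and 46.0 normalized counts in control and 56.3, 57.4 and 50.4 in Rnf40ΔSC libraries. These values overlapped and did not pass (log2 fold change -0.07, SE 0.201, edgeR adjusted p = 0.819), and Kcnk4 had 1 read in all libraries together.

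Kcnk5, named after its values were seen, was higher in Rnf40ΔSC nerves (48.3 ± 13.5 against 74.7 ± 7.86 normalized counts, SD, n = 3 each; log2 fold change 0.60, SE 0.192, edgeR adjusted p = 0.0148). It did not pass with DESeq2 or without control library 1, control library 2 or Rnf40ΔSC library 3 (adjusted p from edgeR or DESeq2 between 0.000472 and 0.128 over the alternatives). Kcnmb4 (chromosome 10, 115854917 to 115910934 on the minus strand), a beta subunit of the large-conductance calcium-activated potassium channel, had 55.6, 64.6 and 63.6 normalized counts in control and 24.9, 17.6 and 14.0 in Rnf40ΔSC libraries. The highest Rnf40ΔSC library was below the lowest control (log2 fold change -1.70, SE 0.235, edgeR adjusted p = 3.72e-07). Kcnma1, the pore subunit it joins, had between 3 and 7 reads in each library and was not tested.

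Promoters were compared for members that moved. RefSeq (GRCm38.p6) promoters were at hand for 32 of the 44 channel genes tested, and Kcna1 had no entry. Shown are the 250 bases before the start of the 2 higher and the 2 lower genes with the lowest p among the 12 that passed under each alternative and that had a single entry, 5′ to 3′ along the gene, with each CG pair in capitals.
Kcnj10 (chr1:172340960-172341209, plus strand): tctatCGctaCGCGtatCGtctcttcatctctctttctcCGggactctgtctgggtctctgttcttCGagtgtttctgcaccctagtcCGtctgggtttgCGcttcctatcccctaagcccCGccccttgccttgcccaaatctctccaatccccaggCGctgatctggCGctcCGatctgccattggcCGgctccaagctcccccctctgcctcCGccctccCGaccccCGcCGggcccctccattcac
Kcnip2 (chr19:45816064-45816313, minus strand): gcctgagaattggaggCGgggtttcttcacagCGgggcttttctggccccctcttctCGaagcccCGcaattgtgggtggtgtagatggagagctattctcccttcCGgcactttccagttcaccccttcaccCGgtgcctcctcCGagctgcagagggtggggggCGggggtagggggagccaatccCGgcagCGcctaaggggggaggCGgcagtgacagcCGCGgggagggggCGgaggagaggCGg
Scn7a (chr2:66784911-66785160, minus strand): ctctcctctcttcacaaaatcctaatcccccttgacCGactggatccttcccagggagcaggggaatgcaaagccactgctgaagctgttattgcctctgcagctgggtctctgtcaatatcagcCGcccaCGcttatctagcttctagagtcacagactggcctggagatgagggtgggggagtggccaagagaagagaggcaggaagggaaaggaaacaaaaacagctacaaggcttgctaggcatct
Kcnk1 (chr8:125994852-125995101, plus strand): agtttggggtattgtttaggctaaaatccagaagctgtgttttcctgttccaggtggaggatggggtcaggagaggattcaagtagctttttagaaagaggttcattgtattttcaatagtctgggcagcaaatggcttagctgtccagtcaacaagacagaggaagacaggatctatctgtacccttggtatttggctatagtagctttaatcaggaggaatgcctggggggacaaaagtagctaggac
These stretches hold 17, 15, 3 and 0 CG pairs and have a GC content of 62%, 66.8%, 53.2% and 44.4%, in the order shown, where the 32851 promoters of the table have a median of 6 CG pairs (quartiles 2 and 16). A difference between the directions was not tested. Over all entries, the 12 promoters of higher genes had a median of 18 CG pairs (2 to 50) and the 12 of lower genes a median of 10 (0 to 43), beside 7 (1 to 48) for genes that did not pass and 16 (0 to 56) for all genes tested. On both strands, a motif of EGR factors (GCGNGGGCG) was found in 1 promoter of each direction, in 4 of the 26 of channel genes that did not pass, in 9.21% of the promoters of all genes tested and in 4.7% of all promoters, and in Scn7a it covers the bases 125 to 117 before the start. ACAAAG, a core of SOX motifs, occurred in 2 promoters of each direction and in 6 of those that did not pass (12.2% for genes tested, 16.5% of all). ATGCAAAT, the octamer of POU factors, occurred in 0 promoters of higher and 1 of lower genes and in 0 of those that did not pass (1.12% for genes tested, 1.6% of all). TATAAA occurred in 1, 0 and 0, in the same order (6.29% for genes tested, 12.4% of all). None of these 3 occurs in the 4 stretches shown. Matches are given as a description of the letters and not as binding sites.

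Calcium channels are built from a pore-forming alpha1 subunit with beta, alpha2delta and in muscle gamma subunits. Cacna1d (chromosome 14, 30853135 to 31304342 on the minus strand in mm9), an alpha1 subunit of L-type channels, had 37.0, 35.0 and 56.1 normalized counts in control and 99.0, 80.8 and 95.4 in Rnf40ΔSC libraries. All Rnf40ΔSC libraries were higher, with a log2 fold change of 1.07 (SE 0.187, edgeR adjusted p = 2.09e-05). The exons of Cacna1d overlap those of Chdh on the other strand, and Chdh had 129, 187 and 247 reads in control and 130, 54 and 132 in Rnf40ΔSC libraries, so that a share of reads counted for one of them may belong to the other.

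Cacnb4, a beta subunit, had 13.9, 13.8 and 26.8 normalized counts in control and 49.9, 36.3 and 34.9 in Rnf40ΔSC libraries. It was higher in all 3 Rnf40ΔSC libraries (log2 fold change 1.09, SE 0.272, edgeR adjusted p = 0.00200). Cacna1a, the alpha1 subunit of P/Q-type channels and the most abundant alpha1 gene by base mean, had 213, 249.9 and 236 normalized counts in control and 283, 237 and 301 in Rnf40ΔSC libraries. The groups overlapped and it did not pass (log2 fold change 0.23, SE 0.108, edgeR adjusted p = 0.0975), but did so with total-count scaling (0.50, edgeR adjusted p = 0.000335) and without Rnf40ΔSC library 2 (0.32, edgeR adjusted p = 0.0261, range over the alternatives 0.000335 to 0.301). Cacnb3, the beta subunit with the highest base mean, had 62.2 ± 8.99 and 55.7 ± 11.7 normalized counts (SD, n = 3 each; log2 fold change -0.13, SE 0.191, edgeR adjusted p = 0.645).

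**Figure D3:**
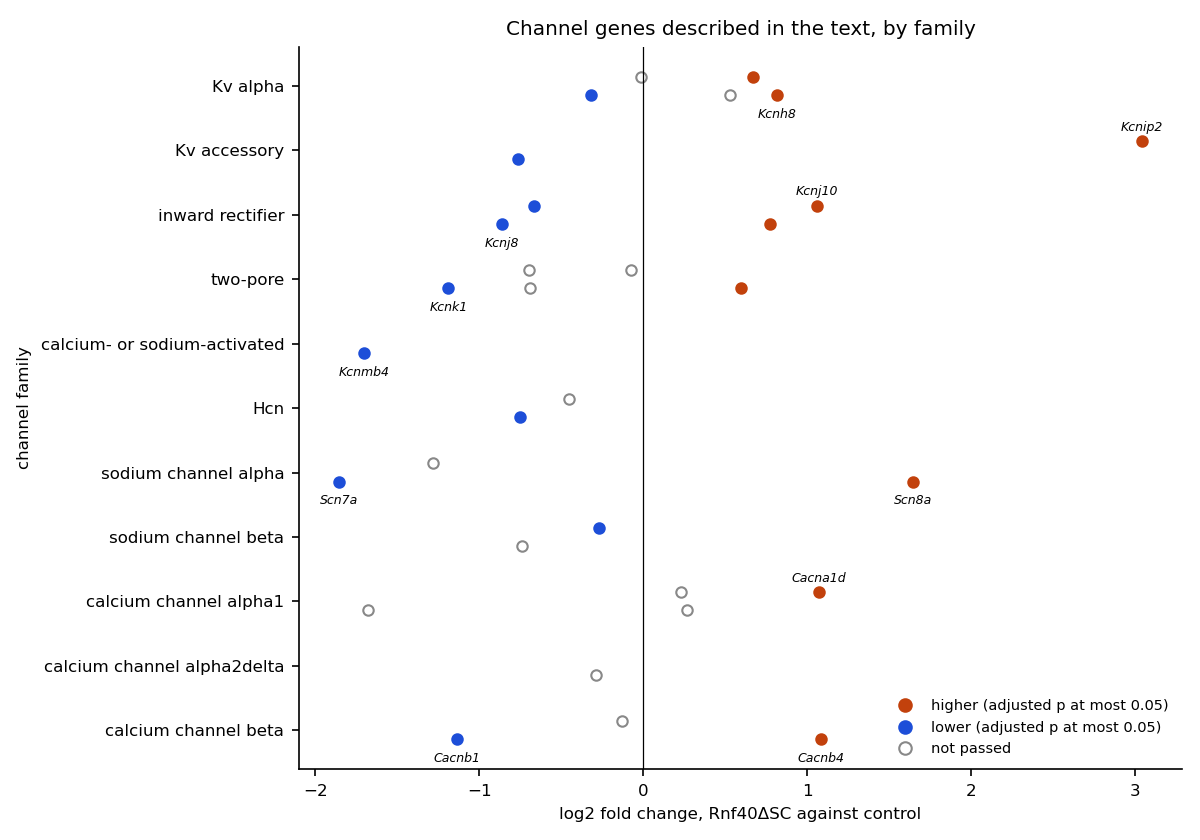
Log2 fold changes (Rnf40ΔSC against control) of channel genes described in the text, arranged by family, with filled symbols for genes called higher or lower and open symbols for those that did not pass. Names mark called genes that differ by 0.8 or more in either direction, and higher and lower genes occur side by side among inward rectifier, sodium channel alpha and calcium channel beta genes, as in Kcnj10 (1.06) and Kcnj8 (-0.86).

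Channel genes of skeletal muscle fibres are given here beside the muscle markers described above. Cacna1s, the alpha1 subunit of the muscle L-type channel, had 29, 59 and 58 reads in control and 1, 5 and 50 in Rnf40ΔSC libraries 1, 2 and 3. Scn4a, the muscle sodium channel, had 7, 10 and 7 reads in control and 0, 1 and 11 in Rnf40ΔSC libraries. In both genes Rnf40ΔSC libraries 1 and 2 were low, and library 3 was near the controls, in normalized counts below all of them for Cacna1s (38.8 against 44.8, 62.5 and 48.5) and between them for Scn4a (8.53 against 10.8, 10.6 and 5.86). With all libraries neither passed (log2 fold change -1.68, SE 0.965, edgeR adjusted p = 0.283 for Cacna1s, and -1.28, SE 0.683, edgeR adjusted p = 0.165 for Scn4a). Without Rnf40ΔSC library 3 the log2 fold changes were -4.12 (edgeR adjusted p = 2.02e-11, range over the alternatives up to 0.484) and -3.85 (0.00240, range up to 0.485).

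In a further member Rnf40ΔSC libraries 1 and 2 were again the lowest. Cacnb1, the beta subunit of muscle, had 25, 33 and 41 reads in control and 15, 5 and 36 in Rnf40ΔSC libraries, which did not overlap in normalized counts. It was called lower (log2 fold change -1.13, SE 0.336, edgeR adjusted p = 0.0112). This call was lost without control library 2 (edgeR adjusted p = 0.0519), control library 3 (0.0528) or Rnf40ΔSC library 1 (0.0775, the highest over the alternatives, the lowest being 2.37e-05).

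Cacng1, the muscle gamma subunit, had 12, 4 and 8 reads in control and 2, 0 and 12 in Rnf40ΔSC libraries, and Kcna7 had 1, 4 and 2 and 0, 0 and 2. Both were below the filter. Scn4b had 17.0, 12.7 and 13.4 normalized counts in control and 8.85, 1.17 and 13.2 in Rnf40ΔSC libraries and did not pass (log2 fold change -0.74, SE 0.440, edgeR adjusted p = 0.209). Cacna2d1, which muscle shares with other tissues, had 69.5, 63.5 and 63.6 and 43.5, 45.7 and 69.0 normalized counts, and passed only without Rnf40ΔSC library 3 (log2 fold change -0.54, edgeR adjusted p = 0.0365, range over the alternatives up to 0.950), against -0.29 (SE 0.193, edgeR adjusted p = 0.269) with it. The part of muscle RNA in the values of these genes was not tested.

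**Figure D4:**
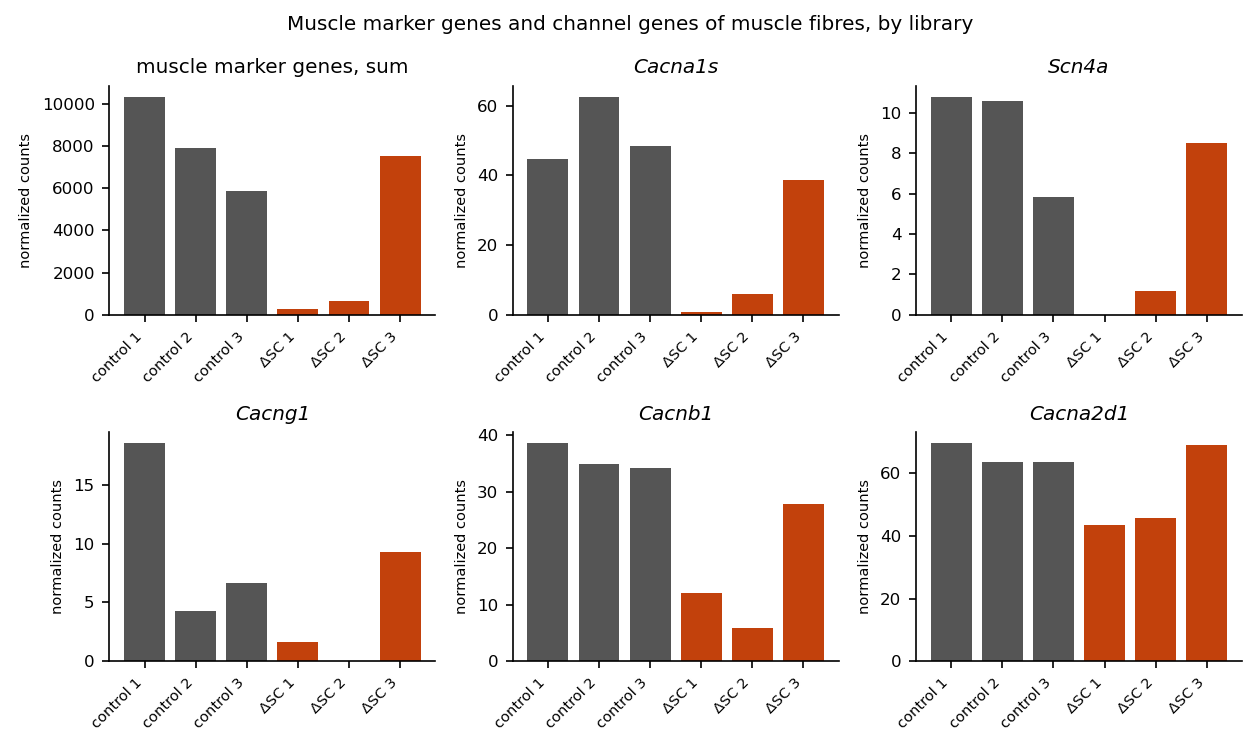
Normalized counts by library of the summed 18 skeletal muscle markers and of 5 channel genes that muscle fibres express, with control libraries in grey and Rnf40ΔSC libraries in orange. Rnf40ΔSC libraries 1 and 2 are lowest in each panel, and Rnf40ΔSC library 3 reaches 7510.3 for the marker sum and 38.8 for Cacna1s.

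Levels of different genes were compared per length, as CPM (TMM-scaled counts relative to library size) per kb of annotated exons, which was possible for 132 of the 135 members. Kcna1 had the highest level in both groups, with 125 ± 6.63 in control and 199 ± 2.88 in Rnf40ΔSC nerves (SD, n = 3 each). High levels in control were also found for Kcna2 (103 ± 9.90), Kcnk1 (70.4 ± 13.7), Scn3b (66.7 ± 0.425) and Scn7a (36.3 ± 2.84), of which Kcnk1 and Scn3b did not differ by more than their spread. In Rnf40ΔSC nerves Kcna2 had 82.9 ± 1.43, Kcnk1 31.0 ± 1.51 and Scn7a 10.1 ± 1.16, so that Kcnk1 and Scn7a lay further below Kcna1 than in control.

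**Figure D5:**
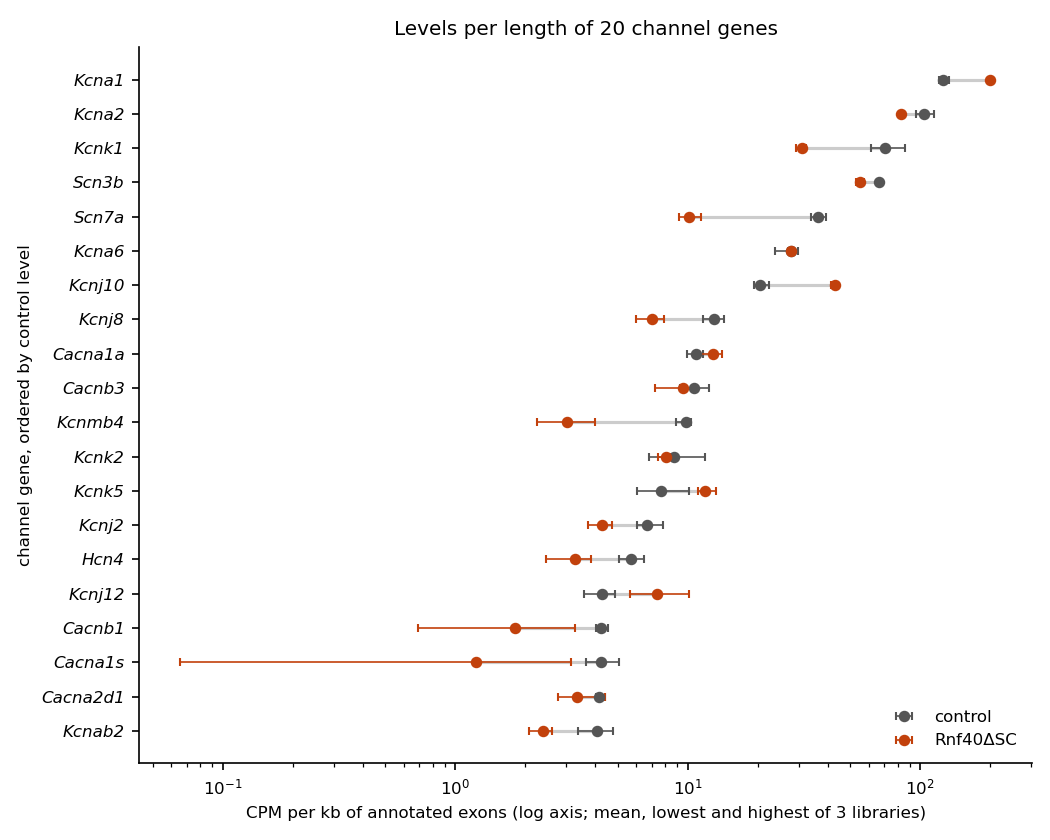
Levels per length (CPM per kb of annotated exons, log axis) of 20 channel genes described in the text, ordered by control level. Points are means and bars reach from the lowest to the highest of 3 libraries, and grey lines join the groups. Kcna1 moves from 125 to 199 and Scn7a from 36.3 to 10.1.

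Among the 69 members below the filter, 39 had more than 3 reads in at least 1 library. Several were without any read in control nerves: Kcnj16, an inward rectifier that pairs with Kcnj10, had 1, 3 and 5 reads in Rnf40ΔSC libraries. Kcnf1, a silent modulatory subunit, had 1, 1 and 6 reads. With the control group set to 3 reads, the ratio to control was 2.47 for Kcnj16 and 2.20 for Kcnf1. The counting error of the Rnf40ΔSC reads is not included, so that these ratios are not lower limits. Kcnt1, a sodium-activated potassium channel, had 0, 0 and 3 reads in control and 10, 5 and 13 in Rnf40ΔSC libraries, and Cacna2d4 had 0, 1 and 3 and 8, 6 and 10. Without the filter edgeR called Kcnj16, Kcnt1 and Cacna2d4 higher, but not Kcnf1, and these 4 genes were singled out after their values were seen. The 8 gamma subunit and TARP genes (regulators of glutamate receptors) were all below the filter. A related gene outside the naming rule, Scn2a1, which encodes a neuronal alpha subunit under an older symbol, had 11, 15 and 17 reads in control and 19, 11 and 20 in Rnf40ΔSC libraries and did not pass (log2 fold change -0.08, SE 0.339, edgeR adjusted p = 0.889).

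Genes that work with the channels were taken from 3 lists. The counts of each list stand beside 15.4% higher and 16.2% lower among all genes tested (33.1% and 7.74% with total-count scaling). Of 18 accessory subunits outside the naming rule, 10 were tested, 4 of which were higher and 3 lower (4 and 2 with total-count scaling). Unc80 and Unc79, which belong to the complex of the sodium leak channel Nalcn, were among the higher ones. Unc80 had 2, 2 and 8 reads in control and 71, 59 and 101 in Rnf40ΔSC libraries (log2 fold change 3.96, SE 0.322, edgeR adjusted p = 1.58e-12), and Unc79 had 3, 3 and 2 and 30, 11 and 22 (log2 fold change 2.62, SE 0.487, edgeR adjusted p = 5.61e-05). In both, all Rnf40ΔSC libraries exceeded the controls, and these libraries alone brought the genes past the filter, which fixed the direction. The pore gene Nalcn, with 13, 10 and 21 and 13, 6 and 13 reads, did not pass (log2 fold change -0.75, SE 0.381, edgeR adjusted p = 0.137). Pex5l, a cytoplasmic partner of Hcn channels, was lower (log2 fold change -0.66, SE 0.145, edgeR adjusted p = 0.000453).

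Of 22 scaffold genes of the node, paranode and juxtaparanode, 16 were tested, with a median log2 fold change of -0.59 (-0.32 with total-count scaling). Here 1 was higher and 8 lower, beside 15.4% and 16.2% of all genes tested (3 and 7 with total-count scaling, beside 33.1% and 7.74%). Ank3, the ankyrin that anchors nodal sodium channels, had 748 ± 93.8 normalized counts in control and 290.1 ± 19.1 in Rnf40ΔSC nerves (SD, n = 3 each; log2 fold change -1.36, SE 0.101, edgeR adjusted p = 1.05e-13). Lgi1, a secreted protein of the Kcna channel complex, was also lower, with 136 ± 26.0 and 29.6 ± 3.79 normalized counts (SD, n = 3 each; log2 fold change -2.18, SE 0.181, edgeR adjusted p = 2.41e-12). Its receptor Adam22 went from 89.7 ± 12.9 to 46.7 ± 6.74 (SD, n = 3 each; log2 fold change -0.93, edgeR adjusted p = 0.000101). Cntnap2, which holds Kcna channels at the juxtaparanode, had at most 3 reads in any library.

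Of 20 sodium pump and cation-chloride cotransport genes, 15 were tested. Here 3 were higher and 3 lower, beside 15.4% and 16.2% of all genes tested (6 and 2 with total-count scaling, beside 33.1% and 7.74%). The higher ones were the pump beta subunits Atp1b1 (log2 fold change 1.14, SE 0.197, edgeR adjusted p = 1.96e-05) and Atp1b2 (0.81, SE 0.100, edgeR adjusted p = 4.25e-08) and the sodium-potassium-chloride cotransporter Slc12a2. The last had 312, 458 and 524 reads in control and 1090, 785 and 1023 in Rnf40ΔSC libraries (log2 fold change 0.88, SE 0.0939, edgeR adjusted p = 1.33e-09). Among the lower ones was Fxyd3, a regulator of the pump (log2 fold change -1.09, edgeR adjusted p = 7.11e-05). The calls of these 4 genes held under all 12 alternatives, while Fxyd1, another of the lower ones, was lost in 4 of them.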

How the data were processed

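RNA-Seq counts of 6 sciatic nerve libraries were used. Per the methods, the authors aligned reads to mm9 with TopHat 2.1.1, assigned uniquely mapped reads with HTSeq-count 0.9.1 and deposited raw counts per gene symbol; the processing notes of the labels also list mm10, Bowtie2 2.1.0 and DESeq2. Annotation and strand setting are not given in the sources used here, and labels and methods name different library kits, so that overlapping genes (Cacna1d, Cacnb1, Cacnb4, Kcnab2, Kcnmb4, Kcna6, Cacna1a among those named) are uncertain. The test used edgeR 4.0.16 under R 4.3.3 (filterByExpr, TMM, robust quasi-likelihood fit, genotype as only term), after a check on simulated data. SEs are the absolute log2 fold change over the root of F. Alternatives were RLE or total-count scaling, DESeq2 1.42.0, no filter, a filter of 10 counts per library, a block for replicate number, and leaving out each library. Replicates differed by 1.85 to 5.60 chi-square per degree of freedom. Positions and exon lengths are from GENCODE vM1 (mm9). Genes were named when past the study's limits, when most abundant in a family, or as known axonal, nodal, muscle or Hcn genes. RefSeq promoters were matched by symbol (32 of 44 tested members). Genes named outside this rule, Kcnip2, Kcnj2, Kcnj12, Kcnk5 and Kcna6 among them, were chosen after their values were seen. Members and lists were chosen with earlier results of these data known.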

Additional observations from a re-analysis of the deposited data

How the results depend on the processing

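The number of channel genes called higher was 11 and of those called lower 11 with RLE scaling and with a replicate block, which changed no call of a channel gene. The numbers of the labels do not pair the libraries, since deviations of same-numbered libraries correlated at -0.095, -0.015 and -0.062. The lower count was 6 with total-count scaling, 7 with DESeq2, 5 with the limits of the study and 6 to 17 when each library was left out. The higher count was 6 with those limits and 9 with DESeq2, where 12% of the 75 channel genes tested were higher and 9.33% lower, beside 8.24% and 8.74% of all genes. The median log2 fold change, -0.30, was -0.034 with total-count scaling, -0.18 with at least 10 counts in every library and 0.21 without a filter, where 113 members enter and 23 have a group at 0 (0.089 over 98 members with these at their bound). Small differences changed sign: Cacnb3 (0.14 with total-count scaling, -0.24 to 0.014 with libraries left out), Kcnk2 (0.19, and -0.25 to 0.16) and Kcna6 (0.26, and -0.10 to 0.043; 0.0020 with at least 10 counts in every library and 0.00055 with the replicate block). The cause was not tested. At 1317167 to 2468765 counts per library, 69 members with reads could not be tested.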

Other observations

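Markers of other cells of the nerve were mostly lower after TMM scaling, and less so with total-count scaling. Among all genes tested, 16.2% were lower after TMM scaling and 7.74% with total-count scaling. Of 7 endothelial markers, 5 were lower (1 with total-count scaling), and their summed level was 1329, 1191 and 1365 normalized counts in control and 846, 856 and 1032 in Rnf40ΔSC libraries, with Cdh5 as the most abundant gene. Of 8 fibroblast and perineurial markers, 7 were lower (3, and 1 higher, with total-count scaling), at 55542, 54363 and 59161 and 41341, 38759 and 40169 normalized counts, led by Col1a2. Of 8 macrophage markers, 6 were lower (2 with total-count scaling), at 818, 727 and 783 and 529, 512 and 555, led by Csf1r. Of 6 adipocyte markers, 3 were lower (2 with total-count scaling), at 2201, 1628 and 2789 and 1735, 1589.7 and 1263, led by Fabp4, where the groups overlapped. None of these markers was at 0 in all libraries. Their part in the values of channel genes was not tested.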
